A study of Homo sapiens with 15 samples.

Results

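The collagen, laminin and integrin genes of the human colorectal cancer line HT115 were followed across 5 groups of libraries. Members were the genes whose symbol has the form of a collagen chain (COL, a number, A, a number), a laminin chain (LAMA, LAMB or LAMC with a number) or an integrin subunit (ITGA or ITGB with its number or letter). COL9A1, COL9A2, COL9A3, COL11A2, COL27A1 and LAMA4 were left out by name. This gave 76 of the 60671 genes in the count table: 39 collagens, 11 laminins and 26 integrins. HT115 is an established line, and the cells of every group carried a doxycycline-inducible gene and were grown with doxycycline at 0.5 µg/ml for 24 h. The induced gene was GFP in the control group (GFP), V5-tagged wild-type SOX9 in the second (SOX9_WT) and V5-tagged mutant SOX9 in the others (M228, M303, M379). M303 is described as a truncated SOX9, and the labels do not say what the names M228 and M379 stand for. Each group had 3 libraries. Whether they were separate cultures is not stated in the labels. The p-values here therefore reflect how far libraries of a group differ, pooled over the 5 groups, which may be technical spread.

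GFP replicate 1 was the shallowest library, with 3054755 reads, and M303 replicate 1 the deepest, with 31704249. A count of 3 reads corresponds to 0.912 CPM in the first and 0.0896 CPM in the second, CPM being reads scaled to a common library size by TMM. This limit covers counting error only. SOX9 itself stood at 97.6 to 158 CPM in GFP, 186 to 243 in SOX9_WT, 1900 to 2383 in M228, 2949 to 3039 in M303 and 2034 to 2329 in M379, and none of these ranges overlaps that of GFP. The mutant groups therefore differ from SOX9_WT in SOX9 level as well as in protein, and the 2 cannot be told apart. All 10 colorectal epithelial markers were detected, with a summed level of 10833 to 25663 CPM. Of 9 fibroblast markers, 7 stayed under 1 CPM in every library, PDGFRA had no read, POSTN had 1 and THY1 had 2. The sum of that list was 1.30 to 4.24 CPM. Of 7 endothelial markers, 6 stayed under 1 CPM in every library and CDH5 had no read; of 8 leukocyte markers, PTPRC had 7 reads and CD3E none, while LYZ, which intestinal epithelium also makes, reached 636 to 3543 CPM.

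Collagens are trimers of alpha chains that form fibrils, networks or membrane-bound rods. Laminins are alpha-beta-gamma trimers of the basement membrane, the thin sheet under every epithelium, and integrins are alpha-beta pairs that bind both and link them to the cytoskeleton. In the intestine, laminin-332 and laminin-511 and the receptors alpha6beta4, alpha3beta1 and alpha2beta1 hold the epithelium on its basement membrane, while most fibrillar collagen is made by the fibroblasts beneath it. SOX9 is an HMG-box transcription factor, known for turning on collagen genes in cartilage and expressed in the crypt of the gut.

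SOX factors bind short sites of the kind ACAAAG and ACAATG, and these letters were searched on both strands in the 250 bases before each RefSeq start site (GRCh38). The 2 motifs share their first 4 letters and differ at the fifth, so no stretch counts as both. RefSeq promoters were matched for 53 of the 76 members, with 68 windows. For 42 members the nearest RefSeq start lay within 100 bases of the start of the counted gene. ACAAAG was found in 6 of these windows (8.82%), against 13.7% of 35116 promoters in all. ACAATG was found in 2 (2.94%), against 9.29% of all. At least 1 of them was found in 7 member windows (10.3%), against 21.2% of all. The member windows with a match belong to COL10A1, COL17A1, COL21A1, COL5A3, ITGAV and LAMB3, and of these COL17A1, LAMB3 and ITGAV were well expressed. For COL21A1 and ITGAV the window nearest the start of the counted gene has no match, and the match lies in another window. The promoters of COL17A1 and LAMB3 are shown because they hold a match and both genes recur below; the promoter of ITGA5 is shown because that gene differed between groups and its window has none. Capitals mark the motif or its reverse complement. COL17A1 lies on the minus strand, with its window at chr10:104085881-104086130, and holds 2 matches. LAMB3 lies on the minus strand, with its window at chr1:209652426-209652675, and holds 1. The window of ITGA5, also on the minus strand, is chr12:54419267-54419516.
COL17A1: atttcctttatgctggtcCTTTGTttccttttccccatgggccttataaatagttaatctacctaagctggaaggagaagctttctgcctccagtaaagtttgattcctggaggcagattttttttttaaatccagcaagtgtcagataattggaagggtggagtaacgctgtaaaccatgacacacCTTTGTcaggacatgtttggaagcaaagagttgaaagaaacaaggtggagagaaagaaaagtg
LAMB3: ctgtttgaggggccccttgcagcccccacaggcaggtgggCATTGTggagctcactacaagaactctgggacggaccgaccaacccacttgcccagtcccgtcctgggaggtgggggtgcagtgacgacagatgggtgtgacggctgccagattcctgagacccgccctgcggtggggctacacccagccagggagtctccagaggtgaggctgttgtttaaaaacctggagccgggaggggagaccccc
ITGA5: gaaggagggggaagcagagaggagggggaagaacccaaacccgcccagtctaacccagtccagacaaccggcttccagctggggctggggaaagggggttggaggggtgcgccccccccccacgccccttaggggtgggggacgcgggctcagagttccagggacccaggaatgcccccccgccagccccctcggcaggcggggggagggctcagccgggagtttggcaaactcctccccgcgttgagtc
COL4A1 and COL4A2, the chains of the common collagen IV network, are transcribed away from each other. The stretch between their RefSeq start sites, chr13:110307158-110307283 on the plus strand, is shown as the shared promoter of this pair. It is 126 bases long with 80.2% G or C and has no match to either motif. The counted COL4A2 gene starts 1472 bases before its RefSeq start site, inside the counted COL4A1 gene. This stretch therefore lies within COL4A2 as counted.
COL4A1-COL4A2: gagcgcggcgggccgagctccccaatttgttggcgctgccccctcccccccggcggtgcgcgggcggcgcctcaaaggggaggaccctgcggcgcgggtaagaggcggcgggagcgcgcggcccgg

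Of the 76 members, 42 passed edgeR's filter on low counts and were tested: 16 of 39 collagens, 10 of 11 laminins and 16 of 26 integrins. A further 30 had at least 1 read over all 15 libraries but failed the filter, the highest of them at a mean of 0.0520 RPKM. ITGA4, COL11A1, COL22A1 and COL19A1 had no read in any library. Levels between genes are given as RPKM, the TMM-scaled CPM per kilobase of exon, averaged over 15 libraries. By that measure 15 tested members stood at 10 or more, 7 between 1 and 10, and 20 under 1. HT115 thus held a small set of abundant chains and a long row of members near the detection limit, as the plot of levels by family shows.

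**Figure D1:**
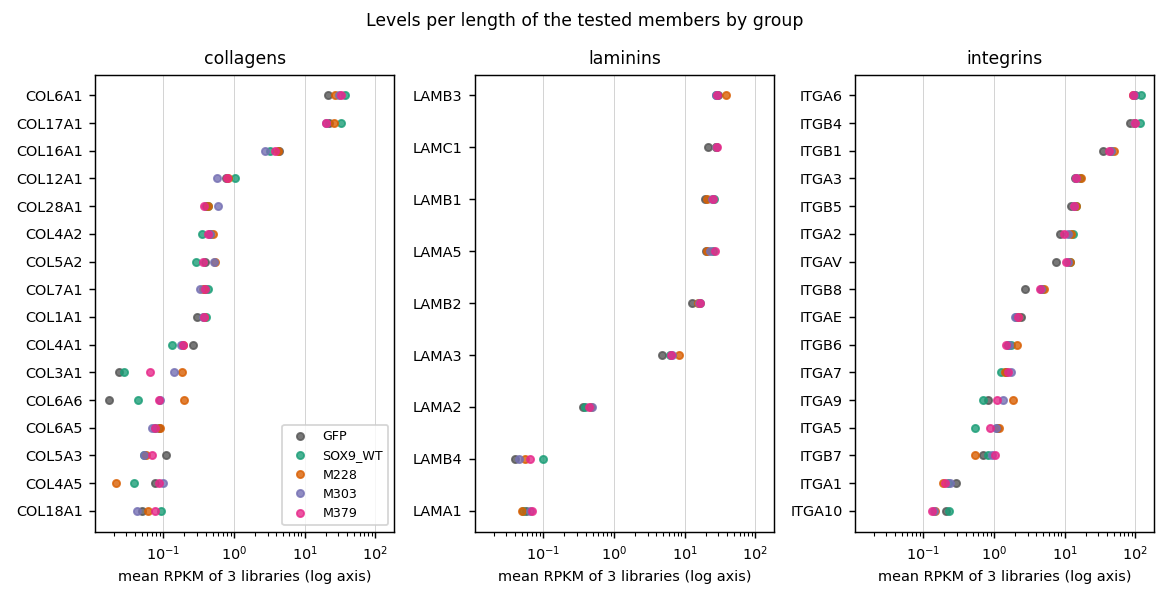
Mean RPKM of 3 libraries (log axis) for tested members, with 1 point per group, in panels for collagens, laminins and integrins ordered by level. COL6A1 and COL17A1 stand apart from the other collagens, LAMB3, LAMC1, LAMB1, LAMA5 and LAMB2 lie above 10 RPKM, and ITGA6 and ITGB4 lead the integrins.

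Collagens were dominated by 2 genes. COL6A1, a chain of the beaded-filament collagen VI, averaged 29.6 RPKM, and COL17A1, the transmembrane collagen of the hemidesmosome, averaged 24.3 RPKM. Next came COL16A1 at 3.67 and COL12A1 at 0.804, which coat fibrils, and then COL28A1 at 0.449 and COL4A2 at 0.445 RPKM. COL6A1 stood without its usual partners: COL6A2 had 2 reads and COL6A3 had 4 over all libraries, against 39660 reads of COL6A1. COL6A2 lies 93061 bases from COL6A1 on chromosome 21. The fibrillar genes were low, with COL1A1 at 0.366 RPKM and COL3A1 at 0.0886. COL1A2, the partner chain of COL1A1 in type I collagen, had 17 reads in all, 13 of them in M228 replicate 1. COL7A1, the anchoring-fibril collagen, averaged 0.382 RPKM. COL4A2 exceeded COL4A1 in 14 of 15 libraries, with a median ratio of 2.50 per length and a range of 0.964 to 4.65. Both ends of that range came from GFP libraries. The length used is that of all exons together, so shorter isoforms of either gene read low in this ratio.

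Laminin chains of the epithelial basement membrane were abundant. LAMB3, the beta chain of laminin-332, averaged 30.5 RPKM, while LAMA3, its alpha chain, averaged 6.45. The ratio of LAMA3 to LAMB3 per length was below 1 in all 15 libraries, with a median of 0.215 and a range of 0.0818 to 0.252. The exon length used is that of all exons together, so isoforms of LAMA3 shorter than that read low on this scale. For laminin-511, LAMC1 averaged 26.6 RPKM, LAMB1 23.2 and LAMA5 23.2, with LAMA5 to LAMC1 at a median of 0.872 and LAMB1 to LAMC1 at 0.884. LAMB2, the alternative beta chain, averaged 15.5 RPKM. LAMB4, which lies 20360 bases from LAMB1 on chromosome 7, averaged 0.0614 RPKM. LAMC3 was the laminin that failed the filter.

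Integrins were led by the 2 subunits of the hemidesmosome receptor, ITGA6 at 99.9 and ITGB4 at 97.5 RPKM. Their ratio per length, ITGB4 to ITGA6, had a median of 0.973 and a range of 0.647 to 1.35. ITGB1, the common beta subunit, averaged 44.1 RPKM. The alpha subunits that pair with it came next: ITGA3 (laminin receptor) at 15.4, ITGA2 (collagen receptor) at 10.999 and ITGAV (RGD receptor) at 10.6 RPKM. The beta subunits known to pair with ITGAV were ITGB5 at 13.7, ITGB8 at 4.40 and ITGB6 at 1.71 RPKM. ITGA1, the collagen receptor that lies 30130 bases from ITGA2 on chromosome 5, averaged 0.231 RPKM. Among the 5 leukocyte alpha subunits only ITGAE, the partner of ITGB7, passed the filter, at 2.18 RPKM. Some of these values are uncertain, because exons overlap those of other genes: 42.3% of the exon bases of ITGB7 overlap a gene on the other strand, which counting without strand does not separate, and 16.7% of those of ITGB6 overlap one on the same strand.

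GFP replicate 2 stood apart from the other libraries, and this touches each comparison with GFP. The median dispersion, the spread between libraries beyond counting error, was 0.098 within GFP. It was 0.010 in SOX9_WT, 0.022 in M228, 0.023 in M303 and 0.015 in M379. Spread was estimated per gene over all 5 groups together, so GFP replicate 2 also enters the standard errors of comparisons without GFP. Of 34 tested members with a mean of at least 1 CPM, this library was the lowest of 15 for 16 members (47.1%), against 33.0% of all tested genes at that level, and the highest for 3 (8.82%), against 29.5%. The integrins of the epithelial surface were the plainest. ITGA2 stood at 17.9 CPM there and at 85.2 and 99.9 CPM in the other GFP libraries. ITGAV stood at 18.7 CPM against 79.1 and 86.8, and ITGB8 at 11.7 against 37.7 and 74.5. ITGB1 and ITGA6 were low as well, at 112 against 251 and 276 CPM and at 408 against 856 and 736 CPM. ITGB4 was not, at 552 against 558 and 576 CPM. The members took 0.245% of all reads in this library, against 0.370% to 0.377% in the other GFP libraries and 0.368% to 0.451% in the SOX9 libraries. Replicate 1 differed from the others in some members too: COL28A1, COL5A2 and ITGA1 were highest in replicate 1 of all 5 groups, which is 8.82% of the 34 members, against 8.56% of all tested genes at that level. COL16A1 and ITGA10 were among those lowest in replicate 1 of all 5 groups.

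**Figure D2:**
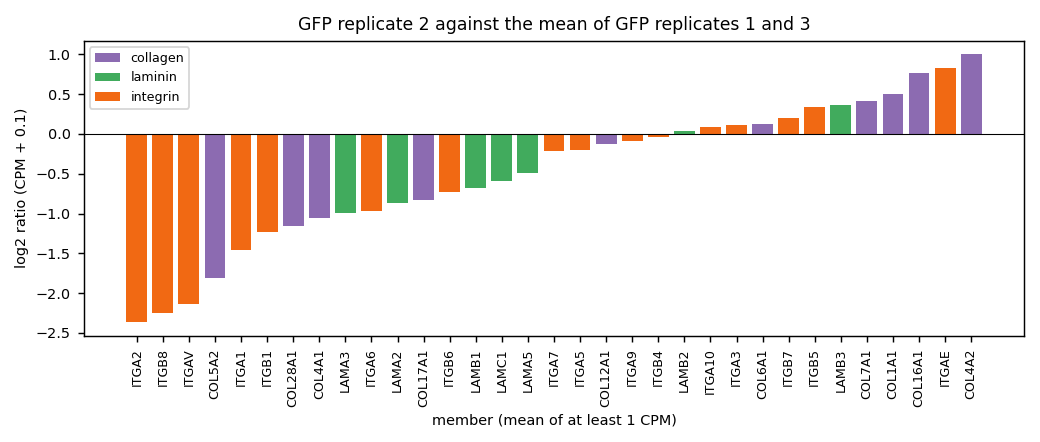
Log2 ratio of GFP replicate 2 to the mean of GFP replicates 1 and 3, with 0.1 CPM added, for members with a mean of at least 1 CPM, coloured by family. The lowest bars include ITGA2, ITGAV and ITGB8, and ITGB4 lies near 0.

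Fold changes below are log2 estimates ± standard error from edgeR's quasi-likelihood test over 16160 genes, and a call is an adjusted p (Benjamini-Hochberg, within a contrast) under 0.05. The 4 comparisons with GFP share its libraries, and the 3 with SOX9_WT share those. Over all 5 groups at once edgeR called 2 of the 42 tested members (0.681% of all tested genes were called), COL6A6 with an adjusted p of 0.0186 and ITGA9 with 0.0246. By unadjusted p, 12 members were under 0.05 (6.85% of all genes). DESeq2 called 7 (1.78% of all genes): COL6A6, ITGA9, ITGA5, COL3A1, COL6A1, ITGB4 and ITGA3. The edgeR count was 0 without SOX9_WT replicate 2, 0 without M228 replicate 1 and 4 without GFP replicate 2.

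COL6A6 and ITGA9 were higher in M228 than in GFP and SOX9_WT, and ITGA5 was higher in M228 than in SOX9_WT. These are the only 3 members that edgeR called in any of the 8 contrasts. COL6A6 (ENSG00000206384, GRCh38 chromosome 3, 130560334 to 130678155, plus strand) encodes an alpha chain of collagen VI. It stood at 0, 0.256 and 0.245 CPM in GFP replicates 1 to 3, at 0.535, 0.271 and 0.478 in SOX9_WT, at 2.88, 1.13 and 1.75 in M228, at 0.806, 0.808 and 0.996 in M303 and at 0.738, 0.780 and 1.07 in M379. All 3 M228 libraries lay above the other 12, and all M303 and M379 libraries lay above those of GFP and SOX9_WT. Against GFP the gene rose by 3.14 ± 0.48 in M228 (edgeR adjusted p = 0.0100, 3 of 3 libraries) and against SOX9_WT by 2.19 ± 0.39 (edgeR adjusted p = 0.0140, 3 of 3 libraries). Only libraries of the mutant groups were high enough for the filter on low counts, so COL6A6 was tested because those groups are high. Its edgeR calls, that over all 5 groups included, share those libraries and are not independent support for a difference. The levels of COL6A6 rest on few reads, 0 to 4 per library in GFP and 8 to 45 in M228, and 3 reads in the shallow GFP replicate 1 would be 0.912 CPM, within the range of M303. Each mate of a read pair was counted by itself, so these reads can come from fewer fragments. The neighbouring COL6A5, 75489 bases away, averaged 0.0805 RPKM against 0.0874 for COL6A6. The call against GFP held without each of the 6 libraries in turn, but the call against SOX9_WT held in 2 of 6 such fits.

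ITGA9 (ENSG00000144668, chromosome 3, 37452115 to 37823507, plus strand) encodes the alpha subunit that pairs with ITGB1 to bind tenascin, osteopontin and other matrix proteins. It stood at 8.82, 6.64 and 5.38 CPM in GFP, 7.10, 5.56 and 4.97 in SOX9_WT, 19.03, 14.8 and 12.99 in M228, 12.002, 12.6 and 8.68 in M303 and 11.1, 8.90 and 7.79 in M379. Every M228 library lay above the other 12, and within each group replicate 3 was the lowest. The gene rose in M228 by 1.24 ± 0.24 against GFP (edgeR adjusted p = 0.0411) and by 1.40 ± 0.23 against SOX9_WT (edgeR adjusted p = 0.00981). Without each library in turn the first call was kept in 1 of 6 fits, with estimates of 1.06 to 1.38, and the second in 3 of 6, with estimates of 1.22 to 1.56. A gene on the opposite strand covers 9.23% of the exon bases of ITGA9, and its part in these counts was not tested.

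ITGA5 (ENSG00000161638, chromosome 12, 54395261 to 54419266, minus strand) encodes the fibronectin receptor subunit. It stood at 7.60, 7.50 and 9.67 CPM in GFP, 3.16, 4.61 and 4.30 in SOX9_WT, 6.66, 9.74 and 10.1 in M228, 7.55, 7.20 and 8.68 in M303 and 6.31, 5.07 and 7.97 in M379. SOX9_WT was thus the group apart, with all 3 libraries below the other 12, and M228 overlapped GFP. The gene was higher in M228 than in SOX9_WT by 1.14 ± 0.23 (edgeR adjusted p = 0.0312), a call kept in 1 of 6 fits without 1 library. The difference of SOX9_WT from GFP was -1.07 ± 0.23, short of a call by edgeR (adjusted p = 0.117) and past the threshold with DESeq2 (adjusted p = 0.0139).

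**Figure D3:**
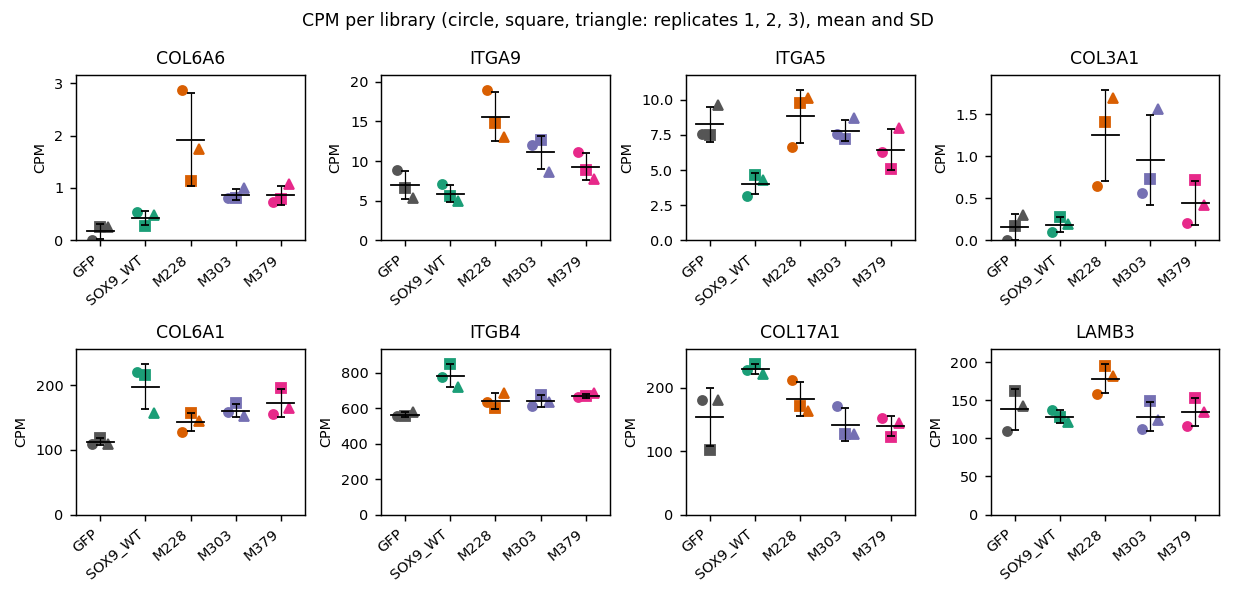
CPM in each library (circle, square and triangle for replicates 1, 2 and 3) with the group mean and SD of 3 libraries, for 8 members on axes from 0. COL6A6 and ITGA9 are highest in M228, ITGA5 is lowest in SOX9_WT, and COL6A1 and ITGB4 are lowest in GFP.

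For M228 against GFP the count of calls was 2 of 42 members, both higher (0.241% of all genes were called), with 13 members under an unadjusted p of 0.05, 12 higher and 1 lower (9.38% of all genes). Fitted on the 6 libraries of these groups alone, or on libraries 2 and 3 of every group, edgeR called none. DESeq2 called 3, adding ITGA3 (1.12% of all genes). Same-numbered libraries deviated together in this contrast, and with the replicate number as a block edgeR called 4 members (1.12% of all genes). Among the added ones was COL3A1, a fibrillar collagen, at 2.68 ± 0.48 (edgeR adjusted p = 0.0158 with the block). Without the block it stood at 2.46 ± 0.68 (edgeR adjusted p = 0.200). DESeq2 estimated it at 2.56 ± 0.82 but gave it no adjusted p in this contrast, so it could not be called there. COL3A1 (ENSG00000168542, chromosome 2, 188974373 to 189012746, plus strand) stood at 0, 0.170 and 0.306 CPM in GFP, 0.0973, 0.271 and 0.191 in SOX9_WT, 0.641, 1.41 and 1.69 in M228, 0.567, 0.731 and 1.57 in M303 and 0.201, 0.715 and 0.416 in M379. The M228 and M303 libraries all lay above those of GFP and SOX9_WT, at 10 to 33 reads a library against 0 to 5. Only libraries of the mutant groups were high enough for edgeR's filter on low counts, so edgeR tested COL3A1 because those groups are high. Its calls with the block, here and below, are therefore not independent support for a difference. After ITGA9, LAMA3 had the highest estimate among members of at least 1 CPM whose groups do not overlap, at 0.80 ± 0.24 (edgeR adjusted p = 0.263), which became 0.52 without GFP replicate 2. The integrins low in that library shrank as well: ITGAV went from 0.69 to 0.24, and ITGB8 from 0.92 to 0.43.

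Wild-type SOX9 against GFP gave no call among the members by edgeR (0.0309% of all genes were called), 9 members under an unadjusted p of 0.05, 7 higher and 2 lower (10.7% of all genes), and 3 by DESeq2 (0.249% of all genes). Those 3 were COL6A1, ITGB4 and ITGA5. COL6A1 stood at 109, 119 and 109 CPM in GFP and at 221, 216 and 158 in SOX9_WT, a difference of 0.82 ± 0.14 (edgeR adjusted p = 0.0765; DESeq2 adjusted p = 0.000312). ITGB4 stood at 558, 552 and 576 CPM in GFP and at 777, 849 and 721 in SOX9_WT, a difference of 0.48 ± 0.11 (edgeR adjusted p = 0.155; DESeq2 adjusted p = 0.000316). For both genes all 12 SOX9 libraries lay above all 3 of GFP, GFP replicate 2 was close to the other GFP libraries, and SOX9_WT had the highest mean. COL17A1 was likewise highest in SOX9_WT, at 228.5, 238 and 222 CPM against 180.3, 101.3 and 181 in GFP, at 0.58 ± 0.20 (edgeR adjusted p = 0.431), which became 0.35 without GFP replicate 2.

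M303 against GFP gave no edgeR call (0.118% of all genes), 6 members under an unadjusted p of 0.05, all higher (7.80% of all genes), and 0 by DESeq2 (0.508% of all genes). Same-numbered libraries deviated together here as well, and with the replicate block edgeR called COL3A1 and ITGA9 (0.526% of all genes), at 2.30 ± 0.47 (edgeR adjusted p = 0.0491) and 0.71 ± 0.13 (edgeR adjusted p = 0.0306). M379 against GFP gave no edgeR call (0.0371% of all genes), 7 members under an unadjusted p of 0.05, all higher (6.77% of all genes), and 0 with the block (0.105% of all genes). DESeq2 called COL6A1 there (0.275% of all genes), which edgeR put at 0.61 ± 0.14 (edgeR adjusted p = 0.244); in M303 it stood at 0.51 ± 0.14 (edgeR adjusted p = 0.304). ITGB7 was at 0.44 ± 0.27 in M303 and 0.56 ± 0.28 in M379, and ITGA10 at -0.59 ± 0.39 in M228 and -0.65 ± 0.38 in M379 (lowest edgeR adjusted p = 0.669 among these 4 values). Most laminins had positive estimates against GFP: 8, 9, 9 and 9 of 10 tested laminins were above 0 in SOX9_WT, M228, M303 and M379, with medians of 0.36, 0.36, 0.32 and 0.39 and no edgeR call. Without GFP replicate 2 these medians were 0.20, 0.25, 0.16 and 0.21, with 8, 7, 9 and 10 of 10 above 0. The median over all 42 members was 0.23, 0.24, 0.20 and 0.23 in these contrasts, near 0 over all genes, and 0.11, 0.17, 0.12 and 0.07 without GFP replicate 2.

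Against SOX9_WT, M228 had 3 of 42 members called, COL6A6, ITGA9 and ITGA5, all higher (0.569% of all genes). By unadjusted p, 8 were under 0.05, 6 higher and 2 lower (6.65% of all genes), and DESeq2 called 4, adding COL3A1 (1.32% of all genes). On libraries 2 and 3 of every group edgeR called none, and none without SOX9_WT replicate 2 or 3. M303 had no edgeR call against SOX9_WT (0.384% of all genes), 11 under an unadjusted p of 0.05, 6 higher and 5 lower (6.31% of all genes), and 2 by DESeq2, ITGA5 and ITGA9 (0.756% of all genes). The block called 5 members here (1.60% of all genes): ITGA9 at 0.92 ± 0.13 (edgeR adjusted p = 0.00191), ITGA5 at 0.96 ± 0.17 (edgeR adjusted p = 0.00964) and COL3A1 at 2.25 ± 0.44 (edgeR adjusted p = 0.0171) were higher. COL12A1 at -0.92 ± 0.19 (edgeR adjusted p = 0.0260) and COL17A1 at -0.71 ± 0.16 (edgeR adjusted p = 0.0395) were lower. For M379 against SOX9_WT COL17A1 stood at -0.72 ± 0.20 (edgeR adjusted p = 0.371), and ITGA5 and ITGA9 stood at 0.69 ± 0.23 (edgeR adjusted p = 0.606) and 0.64 ± 0.23 (edgeR adjusted p = 0.699). ITGA10, a collagen-binding subunit, stood at -0.73 ± 0.36 there (edgeR adjusted p = 0.979). In M228 against SOX9_WT the lowest estimates among members of at least 1 CPM whose groups do not overlap were COL6A1 at -0.47 ± 0.14 (edgeR adjusted p = 0.238) and ITGA6 at -0.35 ± 0.21 (edgeR adjusted p = 0.953). For the 5 members called with the block in M303, the fit without it gave adjusted p that ran from 0.0792 for ITGA5 to 0.258 for COL12A1. COL17A1 stood at 172, 127 and 127 CPM in M303 and at 152, 122 and 144 in M379, all below the 3 libraries of SOX9_WT. M379 had no edgeR call against SOX9_WT (0.124% of all genes), 5 members under an unadjusted p of 0.05, 4 higher and 1 lower (4.70% of all genes), and 0 by DESeq2 (0.287% of all genes). Medians over the members were 0.01, -0.04 and -0.04 in these contrasts.

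**Figure D4:**
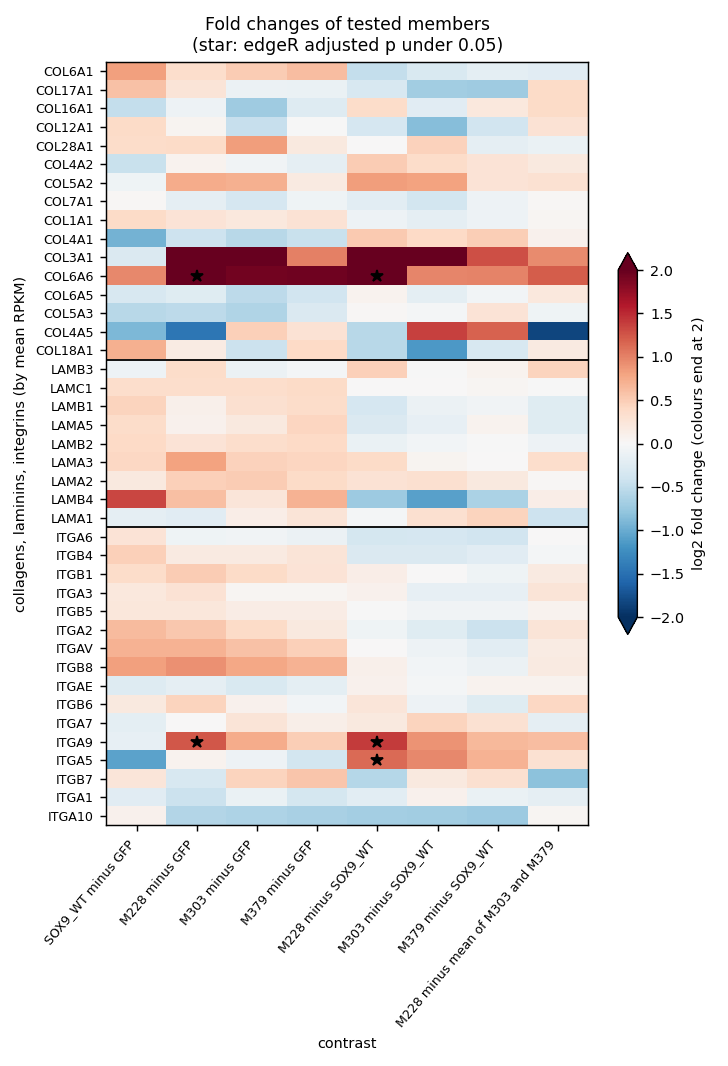
Log2 fold changes of tested members (rows, by family and level) in 8 contrasts (columns), with a star where edgeR's adjusted p is under 0.05 and colours ending at 2. Stars fall on COL6A6 and ITGA9 for M228 against GFP and against SOX9_WT, and on ITGA5 for M228 against SOX9_WT.

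M228 was also set against the mean of M303 and M379, the comparison among mutants. edgeR called no member (0.0557% of all genes), 8 were under an unadjusted p of 0.05, 6 higher and 2 lower (3.74% of all genes), and DESeq2 called ITGA3 (0.220% of all genes). COL6A6 stood at 1.21 ± 0.28 (edgeR adjusted p = 0.303) and ITGA9 at 0.62 ± 0.18 (edgeR adjusted p = 0.619). With the block edgeR called ITGA9 at 0.62 ± 0.10 (0.272% of all genes, edgeR adjusted p = 0.0226). LAMB3 stood at 158, 196 and 183 CPM in M228 against 112, 149 and 124 in M303 and 117, 153 and 135 in M379, above all 6 of those libraries, at 0.44 ± 0.14 (edgeR adjusted p = 0.725), while LAMB1 was below all 6 at -0.24 ± 0.14 (edgeR adjusted p = 1). ITGB7, with the strand overlap given above, stood at 2.63, 1.84 and 2.77 CPM in M228 against 3.56 to 5.53 CPM in those 6 (-0.83 ± 0.24, edgeR adjusted p = 0.609). COL4A5, a network collagen named here after its values were seen, had the lowest estimate of the members, -1.83 ± 0.45 (edgeR adjusted p = 0.329), on 0, 0.256 and 0.508 CPM in M228. The ratio of LAMB3 to LAMA5 per length was 1.58 to 2.37 in M228, 1.00 to 1.21 in SOX9_WT, 1.16 to 1.30 in M303 and 1.02 to 1.17 in M379, while the GFP libraries ran from 1.16 to 2.24 and overlapped M228.

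Genes that make, hold or cut these proteins were read beside the share of all genes that edgeR called. That share ran from 0.0309% for SOX9_WT against GFP to 0.569% for M228 against SOX9_WT. At such shares a list of this size with no call says little. Of 25 genes of collagen modification and crosslinking, 20 were tested and edgeR called none in any of the 8 contrasts. The same held for 20 tested of 21 adaptor and hemidesmosome genes and 8 tested of 9 other matrix receptors. Of 16 basement membrane partners, 10 were tested and NTN4, a laminin-related netrin that binds laminin, was called. It stood at 2.43, 2.47 and 5.69 CPM in GFP, 1.95, 3.19 and 2.48 in SOX9_WT, 12.2, 15.5 and 16.3 in M228, 4.96, 4.43 and 5.45 in M303 and 3.02, 3.44 and 4.22 in M379. M228 lay above every other library, with NTN4 higher by 1.94 ± 0.29 against GFP (edgeR adjusted p = 0.00746), by 2.54 ± 0.29 against SOX9_WT (edgeR adjusted p = 0.000636) and by 1.80 ± 0.22 against the other mutants (edgeR adjusted p = 0.00278). Of 15 matrix proteases and inhibitors, 9 were tested and PLAT, tissue plasminogen activator, was called. PLAT stood at 2.33, 1.29 and 0.955 CPM in SOX9_WT and at no more than 0.379 CPM in the other groups. Only its SOX9_WT libraries were high enough for the filter on low counts, so PLAT was tested because that group is high. The calls below all share those libraries and are not independent support for a difference. Against SOX9_WT it was lower by -2.99 ± 0.53 in M228 (edgeR adjusted p = 0.0140), -2.32 ± 0.42 in M303 (edgeR adjusted p = 0.0280) and -2.86 ± 0.50 in M379 (edgeR adjusted p = 0.0412).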

How the data were processed

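RNA was captured with oligo(dT) beads and sequenced as 150-base read pairs, per the labels' protocols. Alignment used STAR 2.7.0a and the hg38 build, according to the submitters' processing notes. What the authors deposited are unnormalized counts for each gene from featureCounts 2.0.1 (Ensembl 101 gene models), per the file headers. That command line has neither a strand nor a read-pair option, so both strands were counted together and each mate by itself. Low read numbers can therefore come from fewer fragments. A table of normalized values was not used; 3 of its columns match no sample label.

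Symbols came from Ensembl identifiers. Genes were filtered (filterByExpr), libraries scaled by TMM, and 1 mean per group fitted to all 15 libraries with edgeR 4.0.16 in R 4.3.3 (10 residual degrees of freedom, two-sided quasi-likelihood tests, standard error from the estimate and its F). Counting floors cover counting error only. Alternatives were DESeq2 1.42.0, no filter, a replicate block, the compared groups alone, libraries 2 and 3 alone, and each library left out. Same-numbered libraries were taken as paired where every correlation of their deviations exceeded 0.1: M228, M303 and M379 against GFP, M303 against SOX9_WT (lowest 0.101) and M228 against the other mutants. The labels do not say what a number marks. The steps were tested on simulated counts with the same spread in every group and changes only in genes above 1 CPM. That test does not cover a library like GFP replicate 2 or genes with few reads.

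Named with values were called members; the 6 collagens, 5 laminins and 8 integrins of highest RPKM; per contrast, the 2 highest and 2 lowest estimates among members of at least 1 CPM whose groups do not overlap; and 23 genes set by role. Some results are not reported here. Members and lists were chosen with earlier results of these data known.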

Additional observations from a re-analysis of the deposited data

How the results depend on the processing

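None of the 55 gene results followed here reversed its direction: of their 678 values under the alternatives, 607 stayed on their side of the threshold, 47 passed it where the value reported did not, and 24 lost it. Many of them were chosen as calls or extreme estimates, so a reversal was unlikely. Other estimates did reverse: without GFP replicate 2, M228 against GFP went from 0.11 to -0.09 for LAMB1 and from 0.08 to -0.07 for LAMA5. In that fit 27 of 42 members were above 0, against 30 with all libraries. The counts of called members moved more. For SOX9_WT against GFP the count of 0 became 3 with DESeq2, 4 with no filter on low counts and 3 with the replicate block, and 0 to 1 without 1 library (1 without SOX9_WT replicate 3). For M228 against GFP the count of 2 became 6 with no filter, 4 with the block, 0 with libraries 2 and 3 only, 0 with the compared groups alone and 1 to 3 without 1 library; without GFP replicate 2, or without any 1 M228 library, it was 1. For M303 against GFP 0 became 3 with no filter and 2 with the block. For M379 against GFP 0 became 1 with DESeq2 and 1 with no filter. For M228 against SOX9_WT 3 became 0 with libraries 2 and 3 only and 0 to 2 without 1 library, with 0 without SOX9_WT replicate 2 or 3 and 1 without replicate 1 of SOX9_WT or of M228. For M303 against SOX9_WT 0 became 2 with DESeq2, 5 with no filter, 5 with the block and 1 with the compared groups alone. For M379 against SOX9_WT 0 became 1 with no filter, 1 with the block and 1 with the compared groups alone. For M228 against the other mutants 0 became 1 with DESeq2, 2 with no filter and 1 with the block. Over all groups 2 became 7 with DESeq2, 11 with no filter, 5 with the block, 0 with libraries 2 and 3 only and 0 to 4 without 1 library: 4 without GFP replicate 2, 0 without SOX9_WT replicate 2 or M228 replicate 1, and 1 without SOX9_WT replicate 1 or M228 replicate 2. The cause of these moves was not tested. In the 3 contrasts whose numbers did not pair the libraries (SOX9_WT against GFP, and M228 and M379 against SOX9_WT), the block counts were 3, 4 and 1, given as a hint only. Depth limits what GFP replicate 1 can show: 3 reads there are 0.912 CPM, above the level of COL6A6 and COL3A1 in GFP.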
